A study of Mus musculus with 36 samples.

Results

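Mitochondrial ribosomal proteins were measured in mouse kidney by 129 probe sets, which belong to 73 genes. They were taken as every probe set with a single gene symbol that begins with Mrpl or Mrps and a number, out of 45141 probe sets and 17097 named genes, and no expression value was used in the choice. The large subunit (named Mrpl, with Mrps18a and Mrps30) is covered by 87 probe sets of 48 genes and the small subunit by 41 probe sets of 24 genes. The last member, Mrps36, keeps a ribosomal name but is known as a component of the 2-oxoglutarate dehydrogenase complex. Each gene had 1 to 4 probe sets, and 38 genes had at least 2.

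The kidneys came from male C57BL/6 mice of 10 to 12 weeks, which had 7 days on SDS chow to acclimatise and were then killed without surgery, 1 array per mouse. In the first cohort, mice that underwent 3 days of fasting (n = 4) were set against mice with SDS chow ad libitum (AL, n = 5). In the second cohort, 2 weeks of 30% dietary restriction (30%DR, n = 5) was set against SDS chow AL (n = 3), and diets without protein (protein-free, n = 5), carbohydrate (CHO-free, n = 5) or fat (fat-free, n = 4), given for 3 days, were set against a Control diet (n = 5), all AL. The protein source differed between SDS chow and the Control diet, so both were compared with each other too. The restricted mice were fed once a day, so that meal timing and amount of food cannot be told apart in that group, and the fasting cohort was hybridised and normalised on its own. The 3 macronutrient-free diets share their Control mice, and 30%DR and the Control diet share SDS mice. The paper describes 30%DR as a cohort of its own with its own controls, so the second cohort here means arrays normalised together. Its SDS mice go with the 2 weeks of 30%DR and its Control mice with the 3 days of the other diets. Control against SDS, and 30%DR against the CHO-free effect, therefore compare across experiments, which cannot be told apart from diet there.

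The mitochondrial ribosome, or mitoribosome, translates the few messenger RNAs that mitochondrial DNA encodes, all of them for subunits of the respiratory chain and of ATP synthase. Its ribosomal RNAs come from mitochondrial DNA, but its proteins are encoded in the nucleus, made in the cytosol and imported. Some are homologues of bacterial ribosomal proteins and others are found only in mitochondria, and kidney tubules, which spend much energy on transport, are rich in mitochondria. The transcription factors NRF1, GABP (an ETS family member) and YY1 are known to act on many nuclear genes for mitochondrial proteins.

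Promoter sequences of RefSeq (build GRCm38.p6, 250 bases before to 50 after the start site) were matched by symbol for 65 of the 73 genes, as 71 promoters. The letters GCGCNTGCG, a form of the NRF1 site, were found on either strand in the promoters of 24.6% of the member genes (16 of 65) and of 7.12% of all 27025 genes with a promoter. The ETS letters CCGGAAG were found for 35.4% of the member genes and 9.93% of all genes, and the YY1 letters AAGATGGC for 18.5% and 3.19%. The E-box letters CACGTG, which Myc can bind, were found for 6.15% of the member genes and 8.09% of all genes. At least 1 of the first 3 motifs was found for 40 of 65 member genes (61.5%) and for 17.9% of all genes. These are matches of letters in a fixed window and not measured binding sites.

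The promoters of 6 genes on which the comparisons turned, chosen after their values were seen, are given from 180 bases before to 20 after the start site, 5′ to 3′ on the gene's strand, with matches to the first 3 motifs in capitals. Mrpl57, at chr14:57826059-57826258 on the plus strand, holds an NRF1 and an ETS match. Mrpl44, at chr1:79775838-79776037 on the plus strand, holds an NRF1 match. Mrpl34, at chr8:71464746-71464945 on the plus strand, holds an ETS match. Mrps25, at chr6:92184004-92184203, and Mrpl35, at chr6:71823765-71823964, both on the minus strand, hold no whole match in these 200 bases, nor do the same windows of Mrps10 and Mrps23. Mrpl35 has a YY1 match beyond the window, at bases 24 to 31 from the start site. Mrps23 has an ETS match at bases 16 to 22, across the window's end, and both genes count in the shares above. Mrps9, the gene with higher signal in 3 diets, lies at chr1:42851053-42851252 on the plus strand, and its NRF1 match spans the start site.
Mrpl57: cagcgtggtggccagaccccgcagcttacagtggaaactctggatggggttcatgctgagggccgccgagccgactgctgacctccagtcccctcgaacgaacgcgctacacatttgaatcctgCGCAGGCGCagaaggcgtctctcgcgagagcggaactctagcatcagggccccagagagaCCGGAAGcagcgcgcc
Mrpl44: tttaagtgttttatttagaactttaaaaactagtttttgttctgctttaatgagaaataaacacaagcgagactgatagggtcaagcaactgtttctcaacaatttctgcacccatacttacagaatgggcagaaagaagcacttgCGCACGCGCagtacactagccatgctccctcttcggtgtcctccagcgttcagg
Mrpl34: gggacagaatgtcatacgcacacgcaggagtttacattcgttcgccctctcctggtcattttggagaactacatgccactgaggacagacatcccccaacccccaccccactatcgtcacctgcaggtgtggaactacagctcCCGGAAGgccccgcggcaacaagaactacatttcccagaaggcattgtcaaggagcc
Mrps25: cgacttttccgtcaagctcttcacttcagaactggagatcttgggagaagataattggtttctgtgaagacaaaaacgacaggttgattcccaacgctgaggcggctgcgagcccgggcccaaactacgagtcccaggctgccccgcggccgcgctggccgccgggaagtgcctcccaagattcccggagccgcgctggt
Mrpl35: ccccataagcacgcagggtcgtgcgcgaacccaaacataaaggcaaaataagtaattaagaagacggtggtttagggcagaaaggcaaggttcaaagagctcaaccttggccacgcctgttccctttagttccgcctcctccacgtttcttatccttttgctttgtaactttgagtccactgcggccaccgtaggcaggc
Mrps9: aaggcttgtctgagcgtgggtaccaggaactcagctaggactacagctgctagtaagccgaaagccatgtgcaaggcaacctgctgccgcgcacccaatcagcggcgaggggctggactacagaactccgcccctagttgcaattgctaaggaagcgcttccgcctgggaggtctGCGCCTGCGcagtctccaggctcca

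The arrays carry control probe sets at the 3′ and 5′ ends of Gapdh and beta-actin, and the difference of the log2 signals, 3′ minus 5′, rises as RNA is degraded or copied less fully. This difference was not even across the diets. For Gapdh it was 0.82 ± 0.14 (SD, n = 5) in the Control group and 1.85 ± 0.62 (n = 5) in the CHO-free group, a difference of 1.03 (exact permutation test, two-sided, p = 0.00794, the smallest this design allows, adjusted p = 0.0476 over 12 tests of both controls in 6 comparisons). It was 1.34 ± 0.59 (n = 5) in the protein-free group, 1.27 ± 0.37 (n = 4) in the fat-free group, 1.59 ± 0.50 (n = 5) after 30%DR and 1.27 ± 0.41 (n = 3) in the SDS group of 30%DR, and the adjusted p was 0.0952 or more in these comparisons. In the fasting cohort it was 0.93 ± 0.09 (n = 4) after fasting and 0.88 ± 0.23 (n = 5) in the SDS group, with an exact permutation p of 0.706. The beta-actin difference in that cohort was 2.47 after fasting and 2.18 in the SDS group (exact permutation p = 0.0714, adjusted p = 0.143). The mean of 8 proximal tubule markers lay between 10.5 and 11.1 on every array, as fits the labelled tissue.

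The mean log2 signal of the 129 members on an array went with this difference. In the second cohort the lowest member means, 6.99 on array 2 of 30%DR, 7.01 on array 1 of the protein-free group and 7.02 on arrays 3 and 4 of the CHO-free group, were on the arrays with the highest Gapdh differences, 2.22, 2.19, 2.45 and 2.45. As deviations from the group means, the member mean and the Gapdh difference had a Pearson r of -0.90 and a Spearman rho of -0.90 over 27 arrays, and r was -0.88 without the 2 arrays farthest from the median. In the fasting cohort r was -0.40 and rho -0.25 over 9 arrays. These correlations, and the slopes that follow, are given as a description, without a test. They were computed for the members alone, so whether other probe sets go the same way was not looked at. The slope against the Gapdh difference was below 0 for 88 of the 129 members, with a median of -0.11, and it was lowest for Mrpl9 1430976_PM_a_at (-1.55) and Mrps23 1421874_PM_a_at (-1.37). The members' values are therefore given with and without the Gapdh difference as a covariate, and those of the other gene lists where the counts changed with it.

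**Figure D1:**
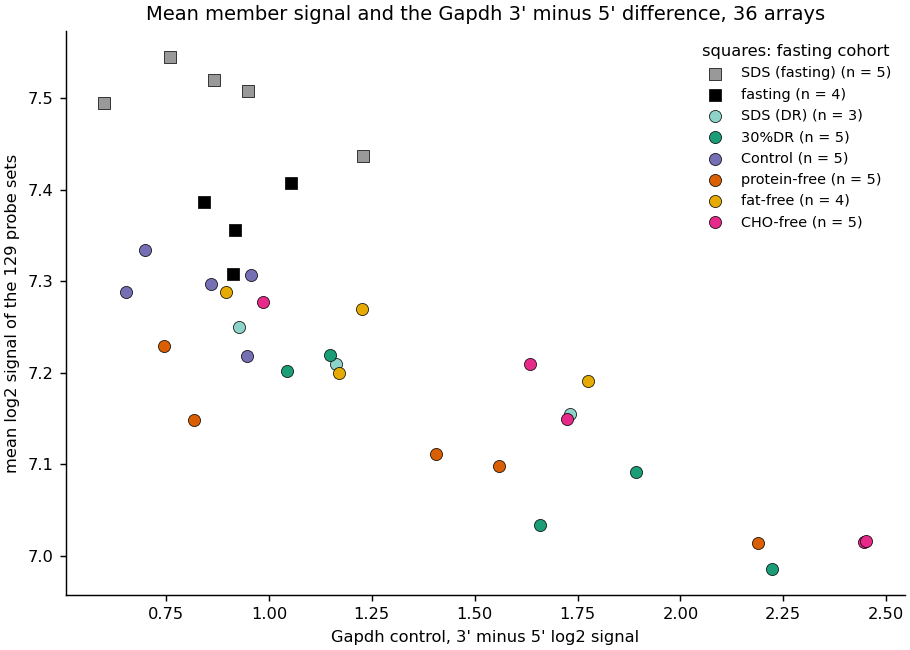
Mean log2 signal of the 129 member probe sets (vertical axis) against the 3′ minus 5′ log2 difference of the Gapdh control (horizontal axis), 1 point per array, coloured by group, with squares for the fasting cohort. The 4 fasting arrays lie between 7.31 and 7.41, below the 5 SDS arrays of that cohort (7.44 to 7.54) at similar Gapdh differences, while in the other 6 groups the member mean falls as the Gapdh difference rises.

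After 3 days of fasting, messenger RNAs of mitochondrial ribosomal proteins were lower in kidney, by small amounts. Of the 129 probe sets, 97 had lower mean signal than SDS chow, and the median log2 fold change was -0.15, beside 0.0033 over all probe sets. At a false discovery rate (FDR) under 5%, 42 members were lower (32.6%, with a background of 9.54% of all probe sets) and 7 were higher (5.43%, background 10.1%). Among probe sets above the median signal of the cohort, 34.9% of the members were lower at a background of 17.1%. The fasting and SDS arrays did not overlap, with fasting lower, for 38 members (29.5%, background 8.58%). With a fold change of at least 1.5 as well, which is how differentially expressed probe sets (DEPS) were called, 3 were lower (2.33%, background 2.68%) and none was higher (background 2.63%). The mean over the members was 7.36 ± 0.04 (n = 4) after fasting and 7.50 ± 0.04 (n = 5) with SDS chow.

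The 3 called members were Mrpl57, Mrpl35 and Mrps25, and with only the brightest probe set of each gene none was called. The mean log2 signals of the Mrpl57 and Mrpl35 probe sets (4.27 and 4.04) lay near the median of 4.18 over all probe sets of the cohort, and that of Mrps25 was 5.45. Mrpl57, a protein of the large subunit known only from mitochondria, had log2 signals on probe set 1460225_PM_at of 4.04, 3.82, 3.85 and 3.87 after fasting and of 5.00, 4.82, 4.51, 4.30 and 4.23 with SDS chow. The groups did not overlap, and the log2 difference was -0.68 ± 0.14 (SE; adjusted p = 0.00641, limma). A second probe set of the gene, 1418137_PM_at, gave -0.11.

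For Mrpl35, the homologue of bacterial protein L35, probe set 1440989_PM_at read 3.51, 3.67, 3.66 and 3.46 after fasting and 4.81, 4.58, 4.46, 4.10 and 4.09 with SDS chow. Every fasting array lay below every SDS array, and the log2 difference was -0.84 ± 0.14 (adjusted p = 0.00137, limma). Its other probe sets gave -0.42 (1419362_PM_at, also under the FDR) and 0.21 (1419363_PM_a_at, which did not pass).

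For Mrps25, a small subunit protein found only in mitochondria, probe set 1418716_PM_at read 4.96, 5.06, 5.39 and 5.02 after fasting and 5.80, 5.55, 5.82, 5.88 and 5.61 with SDS chow. The groups were apart, and the log2 difference was -0.63 ± 0.10 (adjusted p = 0.00107, limma). The other 2 probe sets of Mrps25 passed as well, at -0.50 (1449194_PM_at) and -0.19 (1418717_PM_at).

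The lowest p-value among the members belonged to Mrpl34, the homologue of bacterial L34, whose probe set 1416349_PM_at read 7.62, 7.60, 7.54 and 7.47 after fasting and 8.10, 8.09, 8.23, 7.87 and 8.11 with SDS chow. Its log2 difference was -0.53 ± 0.07 (adjusted p = 0.000474, limma), a change of less than 1.5-fold. Mrpl44, a large subunit protein related to ribonuclease III, read 7.57, 7.55, 7.21 and 7.43 after fasting and 8.13, 8.02, 7.98, 7.82 and 7.92 with SDS chow on probe set 1426651_PM_at. The groups did not overlap for either gene, and Mrpl44 fell by 0.54 on the log2 scale (SE 0.09, adjusted p = 0.00114, limma). Mrpl58, a peptidyl-tRNA hydrolase built into the large subunit that releases stalled chains, changed by -0.39 (1460308_PM_a_at, adjusted p = 0.000993, limma).

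Of the 12 lowest p-values, 7 belonged to other genes that also fell, by 0.29 to 0.50 on the log2 scale. Of the small subunit they were Mrps15 (1449294_PM_at, -0.41), Mrps2 (1420846_PM_at, -0.31) and Mrps7 (-0.29), with bacterial homologues, and Mrps22 (-0.50), known only from mitochondria. Of the large subunit they were Mrpl15 (1451623_PM_at, -0.41), Mrpl36 (-0.46) and Mrpl50 (1451266_PM_at, -0.36). The other probe sets of Mrps2 and Mrpl15 did not pass the FDR. Both subunits took part, with 27 of 87 probe sets lower and 1 higher in the large one, and 14 of 41 lower and 6 higher in the small one. Of proteins with a bacterial homologue, 22 of 79 probe sets were lower, and of proteins known only from mitochondria 19 of 49. These differences between classes were not tested.

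A few members went the other way. Mrps10, a small subunit protein with a bacterial homologue, read 9.28, 9.17, 9.15 and 9.09 after fasting and 8.98, 8.83, 8.71, 8.91 and 8.83 with SDS chow on probe set 1428153_PM_at, with no overlap and a log2 difference of 0.32 ± 0.07 (adjusted p = 0.00595, limma). Mrps9, whose bacterial homologue touches the transfer RNA in the decoding centre, read 8.96, 9.05, 8.80 and 8.75 after fasting and 8.53, 8.67, 8.55, 8.50 and 8.66 with SDS chow on 1448921_PM_a_at (0.31 ± 0.07, adjusted p = 0.0132, limma). All 3 probe sets of Mrps9 passed, the others at 0.30 and 0.26. Mrps35 (0.30), Mrps18b (0.24) and 1 of 3 probe sets of Mrpl38 (0.50) were higher as well, so that 4 of the 5 higher genes were of the small subunit.

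The Gapdh covariate changed little in the fasting cohort. With it, 37 members were lower (28.7%, background 9.21%) and 8 higher, the median stayed at -0.15, and the same 3 were called. With the beta-actin difference instead, 11 were lower (8.53%, beside 5.92% of all probe sets) and 4 higher (3.1%, beside 4.89%) under the FDR, and the median was -0.12, beside 0.0091 over all probe sets. Leaving out 1 array at a time gave 23 to 42 lower members, the 23 without fasting replicate 4. Leukocyte markers were lower after fasting too, with 8 of 8 below 0, a median log2 fold change of -0.67 and 6 past the FDR, and their mean lay between 5.83 and 6.06 after fasting and between 6.41 and 6.81 with SDS chow. Whether this has a part in the members' values was not tested, and in whole kidney fewer cells of a type and less RNA per cell cannot be told apart.

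**Figure D2:**
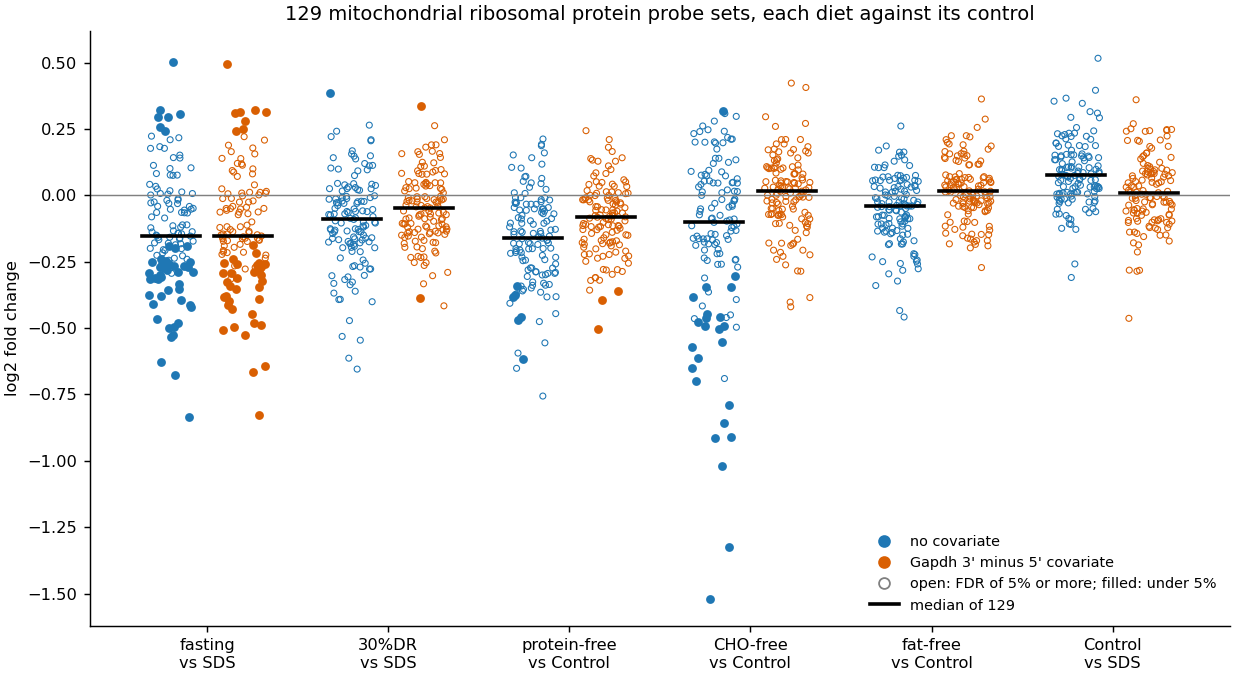
Log2 fold changes (vertical axis) of the 129 member probe sets in 6 comparisons, without (blue) and with (orange) the Gapdh 3′ minus 5′ difference as a covariate, with filled points for an FDR under 5% and black bars for medians. The fasting values barely move with the covariate (median -0.15 both times), while the CHO-free tail down to -1.52 is gone and its median moves from -0.10 to 0.02.

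The rest of the mitochondrial translation machinery was looked at in gene lists, with the brightest probe set of each gene. The background for the fasting counts of these and the following lists, under the FDR, was 9.54% of all probe sets lower and 10.1% higher. Among probe sets above the median signal it was 17.1% and 17.9%. In fasting, 6 of 9 measured translation factors were lower under the FDR and none was higher (median -0.34). They were Gfm2 (-0.64, called), a factor for ribosome recycling, Tufm (-0.53), which brings aminoacyl-tRNA to the ribosome, Gfm1 (-0.42), the elongation factor for translocation, Mtif2 (-0.40), the initiation factor, Mrrf (-0.34), the ribosome recycling factor, and Tsfm (-0.29), which recharges Tufm. Of 18 genes for aminoacyl-tRNA synthesis, 5 were lower and none higher, among them Cars2 (-0.67) and Fars2 (-0.60), both called. Of 20 genes for ribosome assembly and ribosomal RNA modification, 5 were lower and none higher, led by Fastkd2 (-0.60, called), Noa1 (-0.41), Dhx30 (-0.42) and Mtg2 (-0.36). Of 4 mitoribosome proteins with other names, 1 passed, and Dap3, a small subunit protein, was higher by 0.37 ± 0.09 (adjusted p = 0.0125, limma).

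Of the cytosolic ribosomal proteins, 13 of 68 genes were higher in fasting under the FDR and 1 was lower, with a median of 0.13. These are 19.1% of the genes, beside 10.1% of all probe sets and 17.9% of those above the median signal. With the Gapdh covariate 8 were higher and 1 lower. Rpl12 (0.29), Rpl24 (0.25) and Rpl3 (0.25) were among those higher. Of 78 subunits of oxidative phosphorylation, 6 were higher and 7 lower, with a median of -0.03, and with the covariate 5 and 7. Of the translation factors 5 passed with the covariate, while the counts for aminoacyl-tRNA synthesis and assembly were the same. Of 17 genes of mitochondrial transcription and RNA processing, Polg2, the accessory subunit of the mitochondrial DNA polymerase, was higher (0.63, called) and Tefm, the transcription elongation factor, was lower (-0.27).

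Among 8 transcription factors and coactivators of nuclear genes for mitochondria, 3 were higher and 2 lower in fasting. Myc (0.75 ± 0.13, adjusted p = 0.00174, limma, called), Nrf1 (0.48 ± 0.13, adjusted p = 0.0212) and Ppargc1b (0.41 ± 0.06, adjusted p = 0.00101) were higher. Gabpb1, a GABP subunit, was lower (-0.44 ± 0.11, adjusted p = 0.0158, limma), and so was Esrra (-0.23 ± 0.06, adjusted p = 0.0227), a nuclear receptor that acts on genes of energy metabolism.

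**Figure D3:**
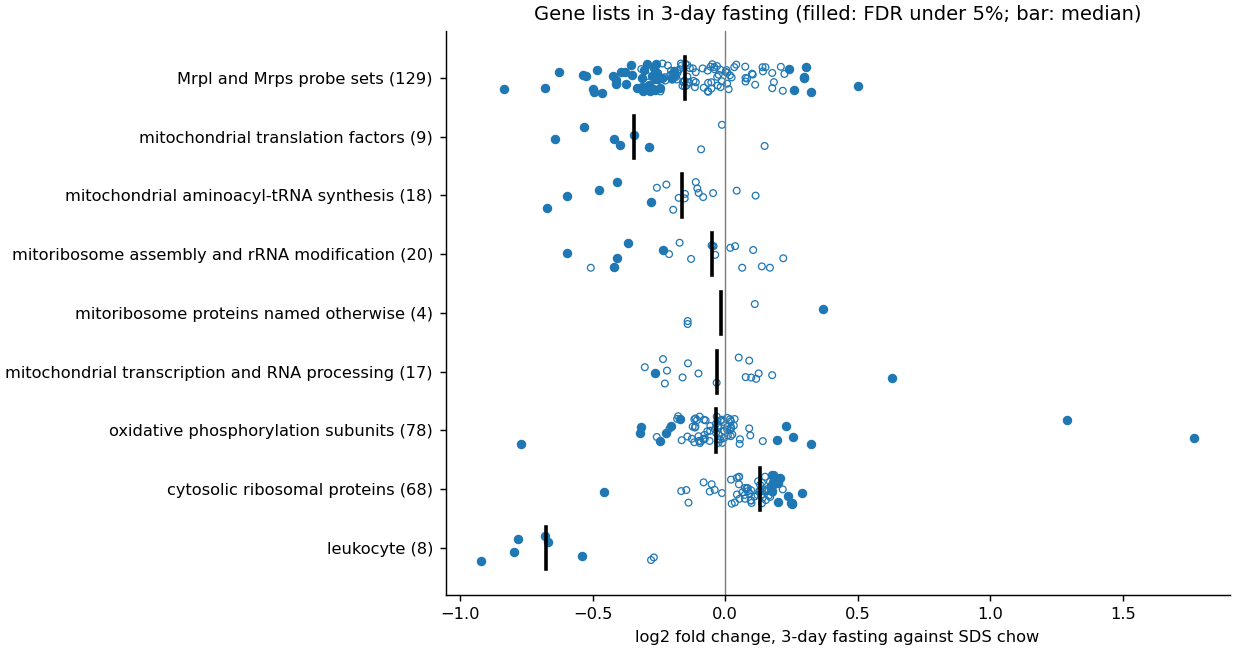
Log2 fold changes in 3-day fasting (horizontal axis) of the member probe sets and of 8 gene lists with 1 probe set per gene (vertical axis, number measured in brackets), filled at an FDR under 5%, with bars for medians. Translation factors (median -0.34) and members (median -0.15) lie left of 0, and cytosolic ribosomal proteins (median 0.13) right of it.

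After 2 weeks of 30%DR no member was lower under the FDR. Of the 129 probe sets 96 had a lower mean than SDS chow and the median log2 fold change was -0.09, beside 0.00027 over all probe sets. The count of lower members was 0 by limma (background 0.724%), 1 was higher (0.775%, background 0.766%), and none was called in either direction (background 0.47% higher and 0.45% lower). At an unadjusted p under 0.05, 12 members were lower (9.3%, background 5.79%) and 3 higher (2.33%, background 6.62%). The higher member was Mrps9, whose probe set 1448921_PM_a_at read 8.06, 8.24, 8.15, 8.25 and 8.28 after 30%DR and 7.86, 7.82 and 7.75 with SDS chow. The groups did not overlap, and the log2 difference was 0.39 ± 0.10 (adjusted p = 0.0375, limma). With the Gapdh covariate it was 0.34 (adjusted p = 0.0454), and the median of the members was -0.05. Mrps9 no longer passed in 7 of 8 fits with 1 array left out (all but that without 30%DR replicate 1), nor with the adipocyte covariate, the compared groups alone, each array's median subtracted or a trended and robust prior. Adipocyte markers had a median of -0.92, with 4 of 4 below 0 and none past the FDR, and with their mean as a covariate the median of the members was -0.11. Of the other lists, the recycling factor Mrrf was lower (-0.38 ± 0.08, adjusted p = 0.0176, limma), as the only 1 of 9 translation factors.

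A protein-free diet of 3 days came with lower mean signal for most members. Of the 129 probe sets, 110 lay below 0, with a median log2 fold change of -0.16, beside 0.0096 over all probe sets. Under the FDR 6 were lower (4.65%, background 0.682%, and 5.36% against 1.24% above the median signal) and none was higher (background 1.01%). With the fold change minimum 1 was called lower (0.775%, background 0.288%) and none higher (background 0.45%). The protein-free and Control arrays did not overlap, with protein-free lower, for 12 members (9.3%, background 1.48%).

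Mrpl34 was the called member, with log2 signals on 1416349_PM_at of 7.26, 7.89, 7.67, 7.37 and 7.93 on the protein-free diet and of 8.33, 8.30, 8.56, 8.06 and 7.95 on the Control diet. The highest protein-free array lay just below the lowest Control array, and the log2 difference was -0.62 ± 0.16 (adjusted p = 0.0468, limma). The call was lost without any 1 of Control replicates 1 to 4 or protein-free replicates 1, 3 and 4, and with the Gapdh covariate the difference was -0.36 (adjusted p = 0.0848).

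Mrps25 gave the lowest p-value, with 6.89, 7.03, 7.15, 7.06 and 7.08 on the protein-free and 7.57, 7.40, 7.63, 7.34 and 7.61 on the Control diet on probe set 1449194_PM_at. Mrpl36, the homologue of bacterial L36, read 7.52, 7.64, 7.64, 7.67 and 7.91 on the protein-free and 7.95, 8.05, 8.13, 8.29 and 8.25 on the Control diet. Neither gene had overlapping groups, and the log2 differences were -0.47 ± 0.09 (adjusted p = 0.00343, limma) and -0.46 ± 0.09 (adjusted p = 0.00456). Both also passed with the Gapdh covariate, at -0.39 (adjusted p = 0.0153) and -0.36 (adjusted p = 0.0164). Mrpl54 (-0.38), Mrps21 (-0.34) and Mrps36 (-0.38) were lower as well, with no overlap between the groups. Without the covariate, the other probe sets of Mrps25, 1418716_PM_at and 1418717_PM_at, did not pass the FDR. The second probe sets of Mrpl34 and Mrpl54 did not pass without it either.

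With the Gapdh covariate 3 members were lower (2.33%, background 0.465%), namely Mrps25, Mrpl36 and the second probe set of Mrpl34, 1438014_PM_at (-0.50, adjusted p = 0.0343, limma), and the median was -0.08. Leaving out 1 array at a time gave 2 to 8 lower members under the FDR, the 2 without protein-free replicate 1. The protein-free arrays 2 and 5, with Gapdh differences of 0.82 and 0.74, had member means of 7.15 and 7.23, and the Control arrays, with Gapdh differences of 0.65 to 0.96, had 7.22 to 7.33. Of the other lists, none of the 9 translation factors, 18 genes of aminoacyl-tRNA synthesis and 20 assembly genes passed. Of 78 subunits of oxidative phosphorylation 7 were lower and 1 was higher (median -0.14). The counts with the Gapdh covariate were 4 lower and 0 higher (median -0.11). The background without the covariate was 0.682% lower and 1.01% higher, and above the median signal 1.24% and 1.87%. Among these subunits Cox7a1 (-0.54), Cox6a2 (-0.63, called), Atp5g1 (-0.59, called) and Uqcrq (-0.29) had the lowest p-values.

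**Figure D4:**
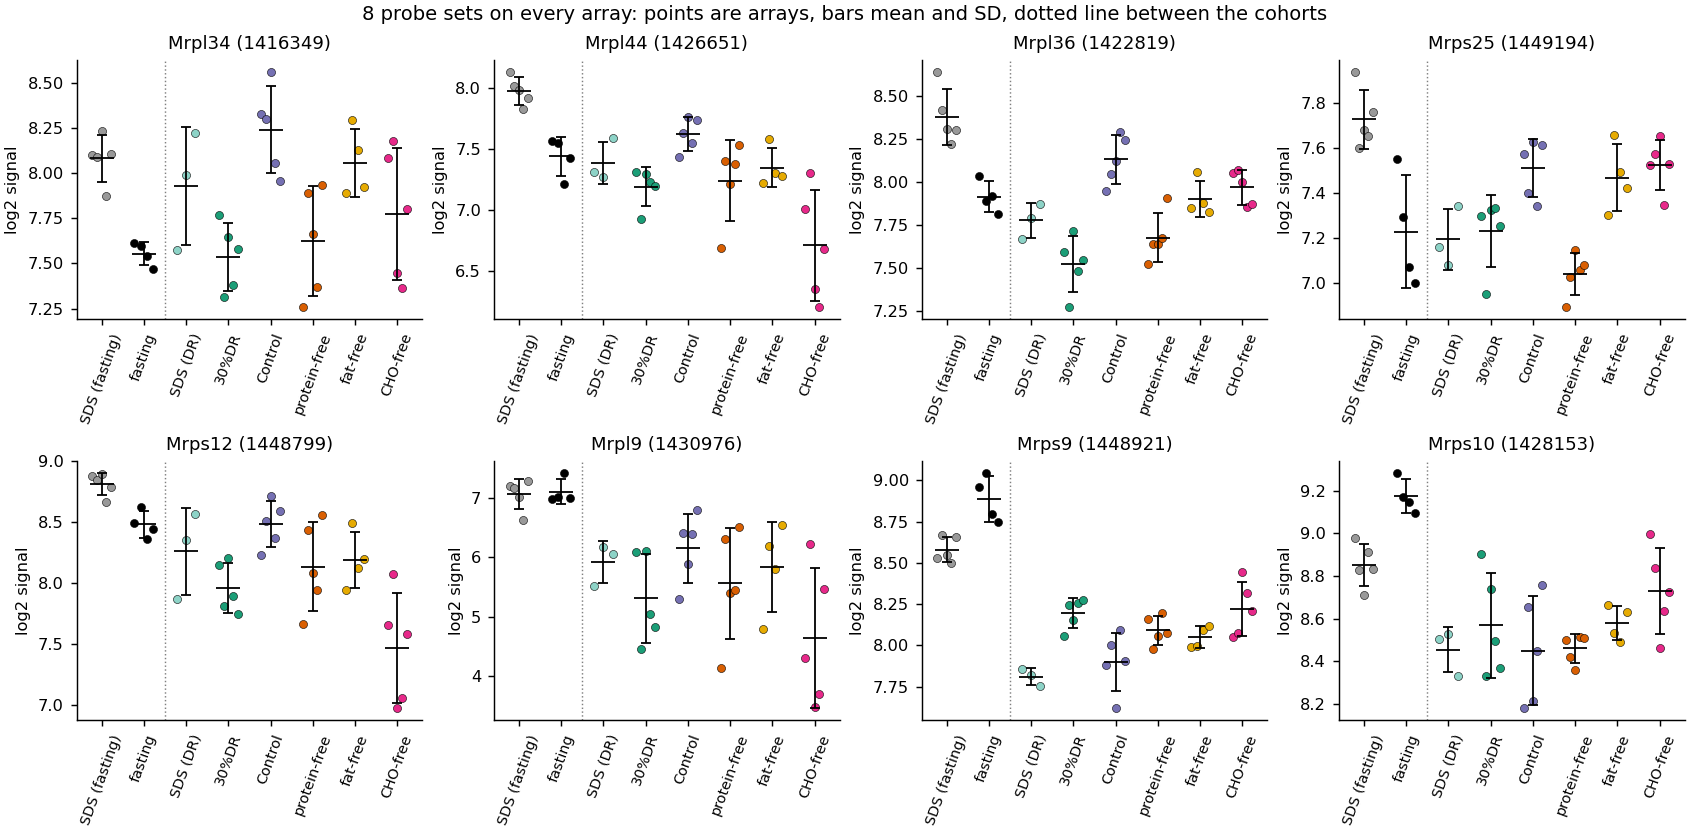
Log2 signal (vertical axes) of 8 member probe sets on every array in the 8 groups (horizontal axes), with mean and SD, and a dotted line between the cohorts. Mrpl34 is lower after fasting and on the protein-free diet, Mrps25 is low on the protein-free but not on the CHO-free diet, and Mrps12 and Mrpl9 spread widely in the CHO-free group, whose arrays 3 and 4 are lowest.

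The CHO-free diet gave the most called members, and none of them passed the FDR with the Gapdh covariate. Their slopes against the Gapdh difference ran from -0.19 (Mrps2 1420845_PM_at) to -1.55 (Mrpl9). The Gapdh difference was 0.98 to 2.45 in the CHO-free and 0.65 to 0.96 in the Control group, without overlap. The diet and the Gapdh difference therefore cannot be told apart in this comparison. Over all probe sets, the share lower under the FDR went from 4.85% to 0.6% with the covariate. Under the FDR 23 members were lower (17.8%, background 4.85%, and 20.5% against 9.1% above the median signal) and 1 was higher (background 5.51%). Called with the fold change minimum were 10 lower (7.75%, background 2.25%) and none higher (background 1.35%). The CHO-free arrays lay below all Control arrays for 10 members (7.75%, background 2.37%), and the median over the members was -0.10, beside 0.03 over all probe sets.

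The largest change was that of Mrpl9, the homologue of bacterial L9, whose probe set 1430976_PM_a_at read 4.31, 6.23, 3.47, 3.70 and 5.47 on the CHO-free and 5.29, 6.41, 5.88, 6.39 and 6.80 on the Control diet. Mrps23, a small subunit protein found only in mitochondria, read 5.59, 6.66, 4.83, 4.47 and 6.09 on the CHO-free and 6.30, 6.76, 6.95, 6.87 and 7.38 on the Control diet on 1421874_PM_a_at. In both genes the groups overlapped, arrays 3 and 4 of the CHO-free group were lowest, and array 2, with the smallest Gapdh difference of that group (0.98), was highest. The log2 differences were -1.52 ± 0.47 (adjusted p = 0.0381, limma) and -1.32 ± 0.40 (adjusted p = 0.0324), and with the Gapdh covariate they were 0.07 (adjusted p = 0.971) and 0.08 (adjusted p = 0.940). The brighter probe set of Mrpl9, 1427297_PM_at (mean log2 signal of the cohort 8.11, beside 5.53), did not pass the FDR.

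Mrps12, which lies in the decoding centre, read 7.65, 8.07, 6.97, 7.06 and 7.58 on the CHO-free and 8.23, 8.51, 8.72, 8.37 and 8.59 on the Control diet, and Mrpl44 read 7.01, 7.31, 6.36, 6.21 and 6.68 against 7.43, 7.63, 7.76, 7.55 and 7.74. The groups of neither gene overlapped. Mrps12 changed by -1.02 ± 0.18 (adjusted p = 0.000791, limma) and Mrpl44 by -0.91 ± 0.16 (adjusted p = 0.000643), and with the Gapdh covariate they changed by -0.38 (adjusted p = 0.0571) and -0.40 (adjusted p = 0.0888). These Mrpl44 values are of 1426651_PM_at. Its brighter probe set 1452144_PM_a_at (mean log2 signal of the cohort 9.86, beside 7.24) did not pass the FDR. The other called members were Mrps18a (-0.91), Mrpl3 (-0.86), which reaches to the peptidyl transferase centre, Mrpl15 (1425189_PM_a_at, -0.79), Mrps22 (-0.70), Mrpl53 (-0.65) and Mrps2 (1420845_PM_at, -0.61). The probe sets of Mrpl15 and Mrps2 that were lower in fasting were others, and those did not pass the FDR here. For Mrps2 the called probe set was the dimmer one (mean log2 signal of the cohort 4.55, beside 8.35). Mrpl12, which also binds the mitochondrial RNA polymerase, changed by -0.57 (adjusted p = 0.00807, limma), just under 1.5-fold.

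With the Gapdh covariate no member passed the FDR (background 0.6% lower) and the median was 0.02. With the 2 CHO-free arrays of highest Gapdh difference (replicates 3 and 4) left out, 4 members were lower under the FDR and 2 were called. Leaving out single arrays gave 8 (without replicate 3) to 33 (without replicate 2) lower members. The member higher under the FDR was again Mrps9, at 8.05, 8.07, 8.44, 8.32 and 8.21 on the CHO-free and 7.88, 8.0, 7.62, 8.09 and 7.91 on the Control diet, with overlap and a log2 difference of 0.32 ± 0.08 (adjusted p = 0.0146, limma) that was 0.16 with the covariate (adjusted p = 0.558). Leukocyte markers were lower in 8 of 8 genes (median -0.39, 3 past the FDR), with a mean of 5.55 to 5.84 on the CHO-free and 5.95 to 6.51 on the Control diet, and their part in the members' values was not tested.

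Of the other lists on the CHO-free diet, Mrrf was lower (-0.38, adjusted p = 0.00142, limma) and Mrm1, a methyltransferase for mitochondrial ribosomal RNA, was higher (0.63, called, adjusted p = 0.000145), and both also passed with the Gapdh covariate (adjusted p = 0.0339 and 0.0182). Tsfm (-0.32), Noa1 (-0.36), Dhx30 (-0.33), Rars2 (-0.42), Tefm (-0.65, called), Gabpa (-0.55), Dap3 (0.38), Qrsl1 (0.32) and Pprc1 (0.53) passed without the covariate but not with it. Of cytosolic ribosomal proteins 9 of 68 were lower (13.2%) and none higher (median -0.10), and 3 were called, Rps9 (-0.78), Rpl9 (-0.74) and Rps13 (-0.61). The background of lower probe sets was 4.85%, and 9.1% above the median signal. None of the 68 passed with the Gapdh covariate, and their median was -0.0036. Of 78 subunits of oxidative phosphorylation 5 were higher and none lower, led by Ndufv2 (0.31) and Ndufs7 (0.50), and with the covariate 1 was higher and none lower. Without the covariate the background of higher probe sets was 5.51%, and 9.78% above the median signal.

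On the fat-free diet 83 of 129 members lay below 0, with a median of -0.04, beside 0.01 over all probe sets. By limma none passed the FDR or was called, as for all 45141 probe sets (background 0% for higher and lower, with and without the fold change minimum). At an unadjusted p under 0.05, 4 members were lower (3.1%, background 1.7%) and 2 higher (1.55%, background 2.93%). The lowest p was that of Mrpl43 (1415681_PM_at), a large subunit protein, at -0.25 ± 0.09 (adjusted p = 0.998, limma). Between the Control diet and SDS chow 100 of 129 members were higher on the Control diet, with a median of 0.08, and by limma none was called (background 0% higher and 0.0465% lower) or passed the FDR. At an unadjusted p under 0.05, 6 were higher (4.65%, background 2.05%) and 1 lower (0.775%, background 4.29%), led by Mrpl36 (0.36 ± 0.10, adjusted p = 0.353, limma). With the Gapdh covariate the medians of both comparisons were 0.02 and 0.01. Adipocyte markers were below 0 on the Control diet in 4 of 4 genes (median -1.51), of which 1, Fabp4, was called, and with their mean as a covariate the median of the members was 0.06.

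The diets were also set against each other. Between the CHO-free and the protein-free diet 8 members were higher on the CHO-free diet (6.2%, background 3.67%) and 3 lower (2.33%, background 3.56%) under the FDR, and 1, Mrps12, was called lower (background 1.34%). Those higher on the CHO-free diet were Mrps25 (1449194_PM_at, 0.48 ± 0.09, adjusted p = 0.000724, limma), Mrpl57 (1418137_PM_at, 0.40), Mrpl54 (0.35), Mrpl34 (1438014_PM_at, 0.53), Mrps21 (0.29), Mrpl36 (0.29), Mrps35 (0.23) and Mrpl49 (1423218_PM_a_at, 0.34). Those lower were Mrps12 (-0.67), Mrpl44 (-0.53) and Mrpl1 (-0.44). With the Gapdh covariate 10 were higher (7.75%, background 2.77%) and 2 lower (1.55%, background 2.64%), Mrps25, Mrpl54, Mrpl36 and Mrps21 among the higher and Mrps12 (-0.36, adjusted p = 0.0124) among the lower.

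Against the fat-free diet, 4 members were lower on the CHO-free diet under the FDR (3.1%, background 1.31%), of which Mrps12 (-0.72) and Mrpl44 (-0.63) were called (1.55%, background 0.622%). None of the 4 passed with the Gapdh covariate (background 0.503% lower). On the protein-free diet 1 member was lower than on the fat-free diet under the FDR (0.775%, background 0.144%), Mrps25 1449194_PM_at at -0.43 ± 0.09 (adjusted p = 0.0329, limma), and it passed with the covariate too (-0.42, adjusted p = 0.0155). It no longer passed in 7 of 9 fits with 1 array left out (all but those without fat-free replicate 1 or protein-free replicate 3), nor with the compared groups alone or a trended and robust prior. The effect of 30%DR did not differ from that of the CHO-free diet for any called member (background 0.253% higher and 0.368% lower), and at an unadjusted p under 0.05 it was higher for 6 members (4.65%, background 4.74%) and lower for 4 (3.1%, background 6.83%). By limma no member passed the FDR, with or without the Gapdh covariate.

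Fasting and the protein-free diet share no arrays. Of the 6 members lower on the protein-free diet, 5 (83.3%) were lower after fasting, which is 11.9% of the 42 lower after fasting, and they were probe sets of Mrpl34, Mrpl36, Mrpl54, Mrps25 and Mrps36. Over all probe sets the shares were 64.3% of those lower on the protein-free diet and 4.6% of those lower after fasting. Of the 23 lower on the CHO-free diet 11 (47.8%) were lower after fasting, which is 26.2% of the 42, beside shares of 50.9% and 25.9% over all probe sets. Mrps21, the remaining one of the protein-free diet, had -0.14 after fasting.

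Probe sets of 1 gene did not always go together. In fasting 7 of 38 genes with several probe sets had all of them under the FDR, 17 had some, 10 had probe sets of opposite sign, and no gene had passing probe sets in both directions. On the CHO-free diet 15 genes had some under the FDR and none had all, and 21 had probe sets of opposite sign. For the protein-free diet 3 genes had some and none had all, and 8 had probe sets of opposite sign. For Mrps23, the CHO-free log2 fold changes were -1.32 on 1421874_PM_a_at, -0.49 on 1421875_PM_a_at and -0.05 on 1459806_PM_x_at, and for Mrpl3 they were -0.86 on 1422463_PM_a_at and -0.26 on 1422464_PM_at. In fasting, the probe sets of Mrpl3 gave -0.31 and -0.25 and those of Mrps23 -0.21, -0.14 and -0.27.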

How the data were processed

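Kidney RNA of 36 mice was hybridised to HT MG-430 PM arrays. The authors normalised each cohort on its own by RMA (version not given in the sources used here), after removing outlier arrays, and deposited log2 expression values per probe set. Precision is limited by the number of arrays, 3 to 5 per group, and replicate numbers only name arrays. Both cohorts were fitted separately with limma 3.58.1 in R 4.3.3, with all groups of a cohort in 1 model and no covariate, and p-values were adjusted by Benjamini-Hochberg over all 45141 probe sets. A probe set was called at an FDR under 5% and a fold change of at least 1.5, and counts at the FDR alone are given too, a choice made after seeing the data. Probe sets were named from the platform annotation. By rule, the members named in each comparison with a control were those under the FDR, at most the 12 with the lowest p, and the 2 highest and 2 lowest log2 fold changes, and of other lists at most 4 called genes by lowest p. Further called or FDR-passing genes, such as the remaining called members and those of the translation lists, were named after their values were seen. Control spot differences were compared by exact permutation tests over arrays, and the fit was tested on simulated data. Alternatives were covariates from control spots or adipocyte markers, other normalisation, weights, priors, filters and models, and leaving out arrays. The members and gene lists were chosen with earlier results of these data known. The labels name no cohort for the SDS mice, so these were split here by the letters that open the animal number in the title. The protocol counts 1 more SDS mouse for the second cohort, which was not analysed here. Figures were drawn with matplotlib 3.10.9.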

Additional observations from a re-analysis of the deposited data

Results flagged for a closer look

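Between diets with the same Control mice, 3 differences passed the test of the difference itself together with the fold change minimum of 1.5. For CHO-free against protein-free 0.775% of the members were called lower (background 1.34%), and for CHO-free against fat-free 1.55% (background 0.622%). Under the FDR alone, CHO-free against protein-free had 8 higher members (6.2%, background 3.67%) and 3 lower (2.33%, background 3.56%). For CHO-free against fat-free 4 were lower (3.1%, background 1.31%), and for protein-free against fat-free 1 was lower (0.775%, background 0.144%). Mrps12 was lower on the CHO-free than on the protein-free diet by a log2 fold change of -0.67 (adjusted p = 0.0237, limma), and than on the fat-free diet by -0.72 (adjusted p = 0.0408). Mrpl44 was lower on the CHO-free than on the fat-free diet by -0.63 (adjusted p = 0.0404, limma). The Gapdh 3′ minus 5′ difference was 1.85 in the CHO-free, 1.34 in the protein-free and 1.27 in the fat-free group, and with it as a covariate the first difference was -0.36 (adjusted p = 0.0124) and the other two did not pass the FDR. Of 52 groups of values, from named members, the member mean and both control spot differences, none had an array beyond Dixon's limit, which chance exceeds in 1 of 20 groups.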

How the results depend on the processing

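Over the comparisons, 128 values stayed within their limits under another setting and 39 moved or changed sign. Of the medians, 5 changed sign. The Gapdh covariate took the called members from 10 to 0 on the CHO-free diet, from 2 to 0 for CHO-free against fat-free, from 1 to 0 for CHO-free against protein-free and from 1 to 0 on the protein-free diet, and the beta-actin covariate gave the same 4 counts of 0. All these members were called lower. Over all probe sets the share called lower fell too with the Gapdh covariate. It went from 2.25% to 0.403% on the CHO-free diet and from 0.622% to 0.27% for CHO-free against fat-free. For CHO-free against protein-free it went from 1.34% to 0.913%, and on the protein-free diet from 0.288% to 0.23%. The medians with the Gapdh and the beta-actin covariate were 0.016 and 0.045 on the CHO-free diet (both a change of sign), -0.081 and -0.064 on the protein-free diet, 0.016 and 0.016 on the fat-free diet (both a change of sign), and 0.010 and -0.0021 for the Control diet against SDS chow (the latter a change of sign). Without both CHO-free arrays of highest Gapdh difference the counts were 2 on the CHO-free diet and 0 in its contrasts with the fat-free and protein-free diets, and the median was -0.051. With 1 probe set per gene the counts were 5 on the CHO-free diet, 1 for CHO-free against fat-free and 0 in fasting, and the CHO-free median was -0.16. With each array's median subtracted it was -0.15. The adipocyte covariate gave 5 on the CHO-free diet and 0 for CHO-free against fat-free and for the protein-free diet. Models of the compared groups alone gave 6 on the CHO-free diet and 0 for its 2 contrasts and the protein-free diet. Without a fold change minimum the counts were 49 in fasting, 24 on the CHO-free diet, 11 for CHO-free against protein-free, 6 on the protein-free diet, 4 for CHO-free against fat-free, 1 for 30%DR and 1 for protein-free against fat-free.

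Among named members 11 values changed sign. With the beta-actin covariate these were, on the CHO-free diet, Mrpl14 (0.059), Mrpl15 (0.045), Mrpl9 (0.36) and Mrps23 (0.40), and Mrps23 on the fat-free diet (0.18), the protein-free diet (0.12) and for Control against SDS (-0.22). With the Gapdh covariate they were Mrpl9 (0.066) and Mrps23 (0.082) on the CHO-free diet, and Mrps23 on the fat-free diet (0.15) and for Control against SDS (-0.10). The causes were not tested.

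With 1 array left out, called members ranged from 2 to 4 in fasting, 4 to 16 on the CHO-free diet (without CHO-free replicates 3 and 2), 0 to 8 for CHO-free against fat-free (the same replicates), 0 to 2 for CHO-free against protein-free, 0 to 2 on the protein-free diet, 0 to 1 for 30%DR against the CHO-free effect, and 0 to 0 for 30%DR, the fat-free diet, Control against SDS and protein-free against fat-free. Medians ranged from -0.18 to -0.13 in fasting, -0.11 to -0.07 for 30%DR, -0.19 to -0.13 on the protein-free diet, -0.12 to -0.08 on the CHO-free diet, -0.07 to -0.02 on the fat-free diet and 0.06 to 0.08 for Control against SDS. No paired analysis was possible because the labels give no replicate numbers that tie mice of different groups.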

Other observations

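There were 6 probe sets that carry the symbol of a member together with that of a neighbouring gene, and they were outside the rule. The 3 probe sets of Mrps25 and Nr2c2 had log2 fold changes in fasting of -0.51 (1425014_PM_at, adjusted p = 0.0197, limma), -0.41 (1451569_PM_at, adjusted p = 0.0166) and -0.12 (1454851_PM_at, adjusted p = 0.121). The 3 of Mrps6 and Slc5a3 had -0.25, -0.03 and -0.09, with adjusted p-values of 0.121 and above. On the protein-free diet the 3 of Mrps25 and Nr2c2 had 0.26, 0.49 and 0.18, with adjusted p-values of 0.0927 and above. With the Gapdh covariate 1451569_PM_at had 0.60 there (adjusted p = 0.0378, limma). On the CHO-free diet 1440227_PM_at of Mrps6 and Slc5a3 had 0.63 (adjusted p = 0.000998, limma), and 0.53 with the covariate (adjusted p = 0.0620). The rest had -0.20 to 0.25 there and did not pass the FDR.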
